A study of Homo sapiens with 5 samples.

Results

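RNA polymerase II (RNAPII) was examined at 201 transcription start sites (TSSs) whose genes carried dense RNAPII early in the gene body of wild-type cells. They were chosen from 8453 TSSs in genes of at least 5000 bp, among 9787 TSSs with values in all 3 genotypes. A TSS was included when its mean RPB1 density from 2000 to 5000 bp downstream was 0.8 or more in the first WT library, and when its promoter density, the mean from -200 to 500 bp, was less than 4 times that value. Both limits were read from WT replicate 1, so its gene body and promoter densities describe the choice and support nothing. Choosing on high WT body density also pulls knockout to WT body ratios down. A TSS whose WT value was high by error, counting error included, enters more readily. The upper limit on WT promoter density relative to the body pushes knockout to WT promoter to body ratios up.

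RPB1, the largest subunit of RNAPII, was mapped by ChIP-seq in untreated RPE1 cells, an hTERT-immortalized human line derived from retinal pigment epithelium. All groups shared the background written iCas9 p53/puro-dKO, which includes loss of p53, and they were WT (3 libraries), CFAP20-KO (1 library) and CFAP20/CCNC-dKO (1 library). CFAP20 encodes a conserved protein first known from cilia, and CCNC encodes cyclin C, a subunit of the Mediator kinase module. The sources used here do not say whether each knockout line came from 1 clone. The sample labels name an Active Motif RPB1 antibody for WT, with the catalogue number also given for the spike-in antibody, and a Bethyl antibody for both knockouts, whereas the protocol text names the Active Motif number alone. Antibody and genotype therefore cannot be told apart in a comparison with WT, while both knockout libraries share 1 antibody label. The analysed TSSs included 0 of CFAP20 or CCNC, so the targets give no check of the knockout labels.

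RNAPII usually slows shortly after initiation and accumulates near the promoter until it is released by the kinase P-TEFb, after which it travels through the gene body. Strongly transcribed genes carry many polymerases along the body, and a low ratio of promoter to body density is commonly read as a short or inefficient pause. A gene with an additional start inside the measured window can also show dense signal there. Mediator connects transcription factors with RNAPII at promoters.

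Promoter sequences are given for some members as a description. ZFP36L1, FLNA and CTNNB1 reached their highest WT density downstream of the listed TSS, beside another annotated start of the same gene, and the downstream promoter is given for FLNA and CTNNB1 and the listed one for ZFP36L1. PLK2, ANXA2 and EEF1A1 are among the densest members whose maximum lay at the listed TSS. Each run holds the 250 bases before a start on the coding strand of hg38, with the GC box GGGCGG on either strand and TATAAA on the coding strand in capitals.
ZFP36L1 listed start: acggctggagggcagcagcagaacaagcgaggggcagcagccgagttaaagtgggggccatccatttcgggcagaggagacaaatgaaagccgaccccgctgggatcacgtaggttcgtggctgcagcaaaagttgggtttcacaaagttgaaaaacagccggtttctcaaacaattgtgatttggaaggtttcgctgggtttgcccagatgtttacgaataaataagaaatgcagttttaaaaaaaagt
PLK2 listed start: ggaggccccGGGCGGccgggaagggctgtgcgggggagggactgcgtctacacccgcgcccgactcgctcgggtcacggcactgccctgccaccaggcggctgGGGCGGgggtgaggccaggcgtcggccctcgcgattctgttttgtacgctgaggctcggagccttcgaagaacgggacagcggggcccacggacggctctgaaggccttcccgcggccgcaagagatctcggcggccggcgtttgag
ANXA2 listed start: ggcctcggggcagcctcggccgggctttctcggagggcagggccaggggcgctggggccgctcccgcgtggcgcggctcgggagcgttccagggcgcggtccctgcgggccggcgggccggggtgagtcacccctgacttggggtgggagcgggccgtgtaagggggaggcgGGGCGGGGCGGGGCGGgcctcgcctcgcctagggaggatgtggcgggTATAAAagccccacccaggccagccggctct
EEF1A1 listed start: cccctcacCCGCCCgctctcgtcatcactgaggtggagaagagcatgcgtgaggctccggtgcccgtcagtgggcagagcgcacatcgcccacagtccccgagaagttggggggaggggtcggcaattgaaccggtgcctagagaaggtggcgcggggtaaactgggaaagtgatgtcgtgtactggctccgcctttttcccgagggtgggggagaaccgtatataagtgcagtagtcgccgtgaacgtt
FLNA downstream start: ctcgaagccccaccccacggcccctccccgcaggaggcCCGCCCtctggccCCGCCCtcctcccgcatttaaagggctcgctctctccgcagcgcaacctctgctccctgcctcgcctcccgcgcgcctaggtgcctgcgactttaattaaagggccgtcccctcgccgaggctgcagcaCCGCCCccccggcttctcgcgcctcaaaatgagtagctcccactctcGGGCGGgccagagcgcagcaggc
CTNNB1 downstream start: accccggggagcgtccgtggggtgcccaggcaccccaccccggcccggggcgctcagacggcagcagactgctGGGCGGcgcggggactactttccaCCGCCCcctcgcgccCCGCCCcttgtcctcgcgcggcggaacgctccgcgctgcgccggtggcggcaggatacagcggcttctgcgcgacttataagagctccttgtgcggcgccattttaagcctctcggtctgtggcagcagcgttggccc
The windows lie at chr14:68794737-68794986 (ZFP36L1, minus strand), chr5:58460261-58460510 (PLK2, minus), chr15:60397987-60398236 (ANXA2, minus), chr6:73521033-73521282 (EEF1A1, minus), chrX:154371204-154371453 (FLNA, minus) and chr3:41199288-41199537 (CTNNB1, plus). The listed ZFP36L1 start had neither motif in its 250 bases. ANXA2 had TATAAA beginning at -31. The FLNA downstream window held 4 GC boxes and the CTNNB1 downstream window 3, at a GC content of 70.8% and 72.4%.

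The knockout libraries were much shallower than WT. Converted to whole fragments, the TSS windows held 6767850 equivalent fragments in WT, 846867 in CFAP20-KO (12.5% of WT) and 1185100 in CFAP20/CCNC-dKO (17.5%). Isolated fragments covered 145, 298 and 319 bp, so sharp peaks are drawn more broadly in the knockouts. A member held a median of 466, 64.4 and 79.4 equivalent fragments in its gene body, which limits what can be said of a single gene in the knockouts. Over all TSSs in genes of 5000 bp or more the medians were 169, 20.5 and 31.7. Background shares past 1.5-fold therefore hold more counting error than those of members. Genotypes were represented by 1 library each around TSSs, so no difference between them has a replicate check or a p-value. Of 12 retinal pigment epithelium markers, 6 were listed and none was a member: OTX2 had a WT promoter density of 1.67 and the others 0.33 to 0.54, near the median of 0.418 over all TSSs. The 3 listed blood markers lay between 0.26 and 0.31 and the 4 hepatocyte markers between 0.36 and 0.46. The neuronal markers SNAP25 and STMN2 had 1.05 and 0.33, the 3 mesenchymal markers 0.34 to 1.03, and the epithelial KRT19 0.42. Retinal pigment epithelium markers thus overlapped with those of other tissues.

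Members carried RNAPII well above the level of other genes downstream of the TSS, and their density declined slowly from the promoter into the gene (the plot of median density by distance). Median gene body density was 1.00 for WT, 1.15 for CFAP20-KO and 0.929 for CFAP20/CCNC-dKO, against 0.364, 0.368 and 0.371 over all 8453 TSSs. Median promoter density was 2.08, 2.15 and 1.45, against 0.418, 0.465 and 0.440. Upstream of the TSS, from -5000 to -2000 bp, members had 0.491, 0.517 and 0.484, against 0.351, 0.344 and 0.352, so part of the elevation was already present before the gene.

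**Figure D1:**
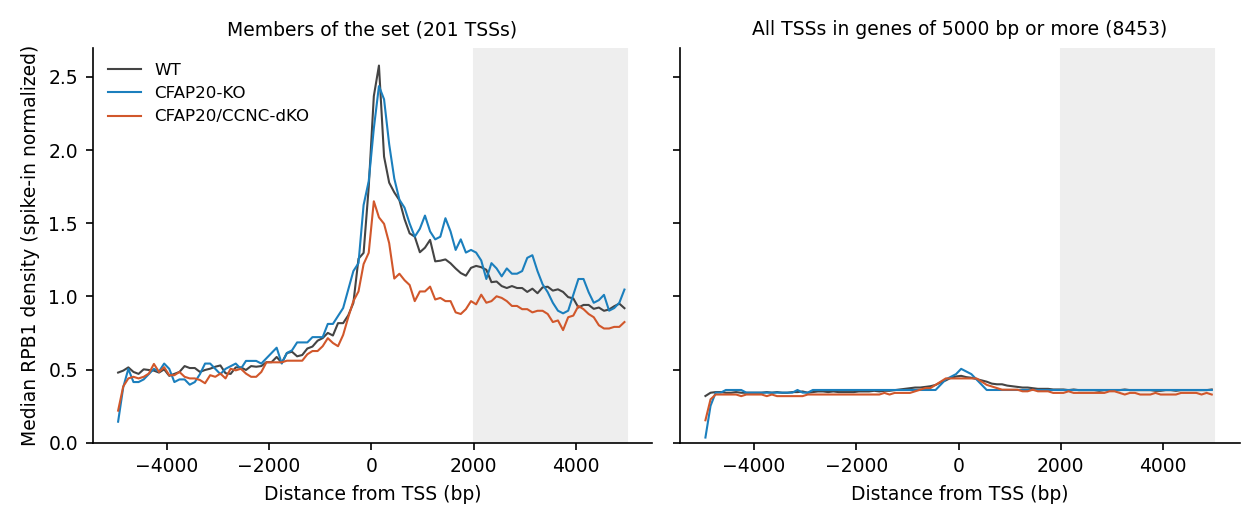
Median spike-in normalized RPB1 density in 100-bp steps against distance from the TSS, for the 201 members (left) and all 8453 TSSs in genes of 5000 bp or more (right), with 1 line per genotype and the gene body window shaded. The members' CFAP20/CCNC-dKO line lies below the other lines at the promoter (median 1.45 against 2.08 and 2.15) and over most of the body, while the 3 lines of all TSSs lie close together except at the left edge, where the knockout lines drop (0.32 for WT, 0.036 for CFAP20-KO and 0.15 for CFAP20/CCNC-dKO at -4950 bp).

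ZFP36L1, which encodes an RNA-binding protein that promotes decay of AU-rich mRNAs, had the highest WT gene body density of 8.82, with 7.74 for CFAP20-KO and 2.08 for CFAP20/CCNC-dKO. PLK2, a polo-like kinase, had 6.17, 5.85 and 2.56. In both genes the double knockout stood far below both other libraries.

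CCND1, which encodes cyclin D1, had gene body densities of 4.06, 3.35 and 2.80 in WT, CFAP20-KO and CFAP20/CCNC-dKO. ZMIZ1, a transcriptional coregulator, had 3.56, 3.18 and 1.32. EEF1A1, the translation elongation factor, had 3.40, 4.06 and 3.25. EEF1A1 thus differed little between WT and the double knockout, unlike ZMIZ1.

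FLNA, the actin crosslinker filamin A, had gene body densities of 3.30, 4.00 and 3.16. ANXA2, a membrane-binding annexin, had 3.30, 3.80 and 2.54, and F3, the coagulation initiator tissue factor, had 3.08, 3.83 and 2.38. These 3 genes were highest in CFAP20-KO, and CFAP20/CCNC-dKO was lowest. LZTS2, a leucine zipper protein, had 3.06, 2.58 and 1.82. TGM2, a transglutaminase that crosslinks matrix proteins, had 2.75, 2.42 and 0.846, and RGS4, a regulator of G protein signalling, had 2.73, 2.26 and 1.06. For these last 3 genes the order was WT, then CFAP20-KO, then CFAP20/CCNC-dKO.

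**Figure D2:**
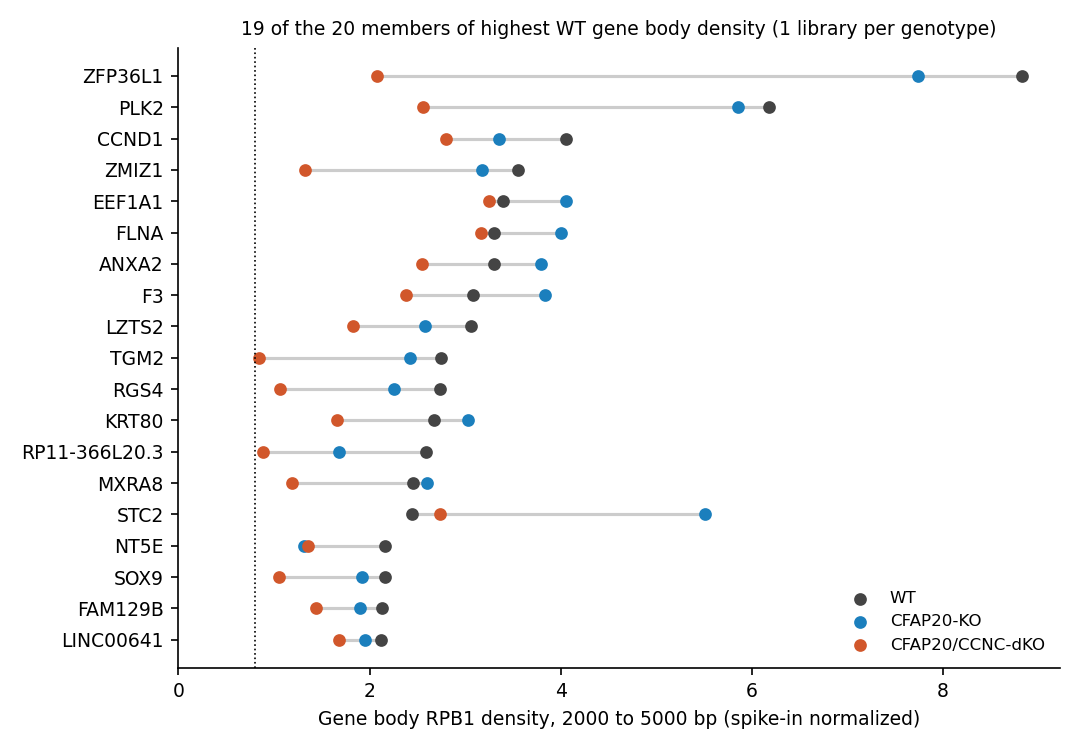
Gene body RPB1 density (horizontal axis, spike-in normalized) of 19 of the 20 members of highest WT density, 1 point per genotype, with the limit of 0.8 dotted. CFAP20/CCNC-dKO is the lowest of the 3 for ZFP36L1 (2.08) and PLK2 (2.56), and STC2 is highest in CFAP20-KO (5.51).

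The members just inside the body limit were SLC4A7 (0.801), PTRF (0.802) and ING4 (0.802), and just outside it were IFIT3 (0.7997), FAM71F2 (0.799) and TRIM56 (0.798). At the ratio limit, CHST3 with a promoter to body ratio of 3.95 was inside and LINC00657 with 4.07 outside. At the length limit, MCL1 with 5035 bp was inside, and SPRY2 with 4976 bp was outside with a WT body density of 1.63. The dense TSSs set aside by the ratio limit numbered 21.

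The dense body signal belonged to highly transcribed genes by an independent assay. The authors' BrU-seq value, a measure of nascent transcription over the gene body in WT cells on a scale not given in the sources used here, had a median of 8.92 over the 199 members with a value and 0.527 over all valued TSSs. It was above 2.09, the upper quartile of valued TSSs, for 162 members (80.6%), against 16.9% of all TSSs. EEF1A1 (642), PLK2 (411), MYC (252) and ZFP36L1 (252) had the highest values. Across members, WT body density and BrU-seq gave a Spearman correlation of 0.36 (n = 199 TSSs, both measures from WT cells). SLC22A2 (0.036) and the lncRNA RP11-258F22.1 (0.082) had the lowest.

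Members were mostly protein-coding, 177 of 201 (88.1%, against 64.5% of all TSSs), with 23 lncRNAs (11.4%, against 33.0%). Their genes were somewhat shorter, with a median of 16191 bp against 21449 bp. The 300 bases around their TSSs had a median GC content of 60.3% against 54.0%, and 20 CpG dinucleotides against 8. From 250 bases before to 50 after the listed TSS, GGGCGG on either strand occurred in 116 members (57.7%, against 38.6%), CCAAT on either strand in 76 (37.8%, against 36.2%), and the AP-1 motif TGANTCA in 13 (6.47%, against 8.62%). The TEAD motif GGAATG on either strand occurred in 18 (8.96%, against 14.5%), and the CArG box of serum response factor in 8 (3.98%, against 1.77%). TATAAA beginning between -40 and -15 was found at 1 member, ANXA2, and at 5 of the 21 dense TSSs with a promoter at 4 times the body or more (23.8%), against 1.70% of all TSSs.

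In some members the WT maximum sat beside a second annotated start rather than at the listed promoter. The WT maximum of the 10-kb window lay beyond 500 bp downstream in 70 members (34.8%, against 29.6% of all TSSs). In 36 of them (17.9% of members, against 2.99% of all TSSs) a GENCODE 44 transcript start of the same gene lay within 500 bp of that maximum. FLNA peaked at 3460 bp with a start at 3435 bp, CTNNB1, which encodes beta-catenin, at 4640 bp with a start at 4628 bp, and EGLN1, the oxygen-sensing prolyl hydroxylase PHD2, at 2830 bp with a start at 2757 bp. ZFP36L1 peaked at 1730 bp beside a start at 1669 bp, and STC2, the secreted glycoprotein stanniocalcin 2, at 1150 bp beside one at 1089 bp. The maxima of ZFP36L1 and STC2 lay before the body window.

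**Figure D3:**
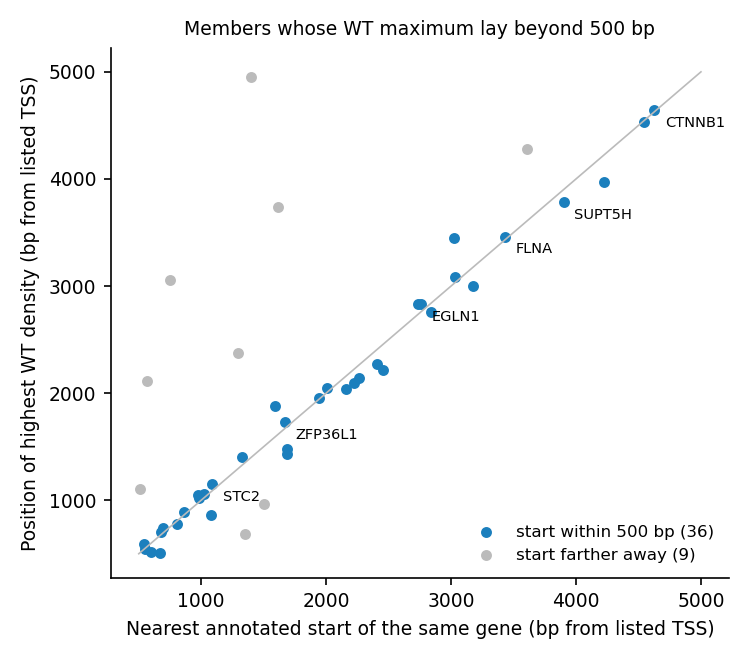
Position of the highest WT density against the nearest annotated start of the same gene, both in bp from the listed TSS, for members whose maximum lay beyond 500 bp and that have such a start between 500 and 5000 bp. In 36 members the start lies within 500 bp of the maximum (blue), close to the line of equal position.

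Of the 6 lowest promoter to body ratios in WT, 5 belonged to genes with such a downstream start. Promoter density at the listed CTNNB1 TSS was 0.418 for WT, 0.259 for CFAP20-KO and 0.143 for CFAP20/CCNC-dKO, at or below the typical level of all TSSs, while its body density was 1.57, 1.97 and 1.35. EGLN1 had promoter densities of 0.494, 0.399 and 0.663 under body densities of 1.82, 2.18 and 1.26. For SOX4, a transcription factor gene with a downstream start at 982 bp, promoter density was 0.270, 0.036 and 0.217 and body density 1.17, 1.51 and 1.00. For CHID1 and ELP3 WT promoter density was 0.288 and 0.308, and both peaked within 500 bp of an annotated downstream start. SLC22A2, an organic cation transporter gene with the lowest ratio and a WT promoter density of 0.151, had no such start and peaked at 4160 bp. These ratios and positions come from the library that chose the members and are a description.

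Density within the body window usually declined with distance. The ratio of late body (3500 to 5000 bp) to early body (2000 to 3500 bp) had a median of 0.879 for WT, 0.818 for CFAP20-KO and 0.893 for CFAP20/CCNC-dKO, against 0.991, 0.963 and 0.985 over all TSSs. It was 6.10, 5.90 and 8.95 at CTNNB1 and 3.37, 3.55 and 4.29 at DHRS7, a dehydrogenase gene, where the downstream start lies in the late window. At ING1, a chromatin reader that peaked at 2040 bp, it was 0.169, 0.180 and 0.247. At these genes the shape was alike in the 3 genotypes. LINC00840 had ratios of 2.69, 0.730 and 3.13, in which CFAP20-KO stood apart.

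Some members stood on raised surroundings. In 48 members (23.9%) WT body density was under 1.5 times the upstream density of the same TSS, against 89.8% of all TSSs. Chromosome 10 held 30 members (14.9%, against 4.24% of all TSSs). RPE1 cells are known to carry a gain of part of the long arm of this chromosome. Beyond 60 Mb, 22 of 203 TSSs were members (10.8%, against 2.11% on all other chromosomes), and the median upstream density there was 0.542 for WT, 0.555 for CFAP20-KO and 0.543 for CFAP20/CCNC-dKO, against 0.349, 0.341 and 0.349 elsewhere. These bounds were chosen after the values were seen, and DNA copy number was not tested.

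Between 35 and 39 Mb of chromosome 10, density was high in WT alone. Median upstream density over the 8 TSSs there was 0.863 for WT, 0.335 for CFAP20-KO and 0.397 for CFAP20/CCNC-dKO, and 5 of these TSSs were members. PCAT5, a lncRNA, had body densities of 1.65, 0.285 and 0.346 and upstream densities of 1.46, 0.320 and 0.429. LINC00993 had body densities of 1.17, 0.433 and 0.343 and upstream densities of 1.13, 0.495 and 0.259. RP11-258F22.1 had body densities of 0.920, 0.286 and 0.276 and upstream densities of 1.20, 0.350 and 0.451. Upstream and body density were both lower in the knockouts at these lncRNAs, and they supplied 3 of the 6 lowest CFAP20-KO to WT body ratios.

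Replicates 2 and 3 of WT, which the rule did not use, could be read where a TSS lay within 95 kb of a replication origin centre. The origins come from OK-seq, a map of replication, and these windows had 200-bp bins. They covered 71 members among 1579 TSSs. Relative to each library's median TSS, the members' median body density was 2.47 in WT replicate 1, 2.01 in replicate 2 and 3.08 in replicate 3. The mean was 2.52 ± 0.536 (SD, n = 3), which includes replicate 1, the library that chose the members. Without replicate 1 it was 2.54. Body density was above the library median for 71, 70 and 71 of the 71 members (50.0% of all TSSs by construction), the first count being from the choosing library. Among the densest TSSs of each library, taking as many as there were members with ties kept, were 40 members in replicate 2 (4.50% of all TSSs) and 49 in replicate 3 (4.56%). High body density was thus present in the libraries outside the choice.

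Of the libraries outside the choice, the ratio limit set members apart from all TSSs less in replicate 2 than in replicate 3. Promoter density was under 4 times body density for 68 of 71 members in replicate 2 (90.9% of all TSSs) and for 66 of 71 in replicate 3 (72.6%). In replicate 1, which chose on this ratio, it was 68 of 71 (80.9% of all TSSs). The median promoter to body ratio of these members was 2.13, 1.83 and 2.03 in the 3 replicates, against 1.92, 1.69 and 2.34 over all 1579 TSSs. Members were thus above all TSSs in replicates 1 and 2 and below in replicate 3. In the TSS windows of replicate 1 the median ratio was 1.93 for all members and 1.24 over all TSSs in genes of 5000 bp or more. EEF1A1 had relative body densities of 8.38, 5.64 and 11.2 (mean 8.39 ± 2.76, SD, n = 3). ANXA2 had 8.11, 6.38 and 11.9 (mean 8.79 ± 2.82), and LZTS2 7.61, 6.11 and 7.39 (mean 7.03 ± 0.812). STC2 had 6.08, 3.33 and 4.37. The ectonucleotidase gene NT5E had 5.38, 5.19 and 6.86, and the lncRNA LINC00641 5.10, 3.96 and 6.00. All 6 genes were more than 3 times above the library median in replicates 2 and 3, and also in replicate 1, which chose them. The means and SDs of single genes include replicate 1.

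**Figure D4:**
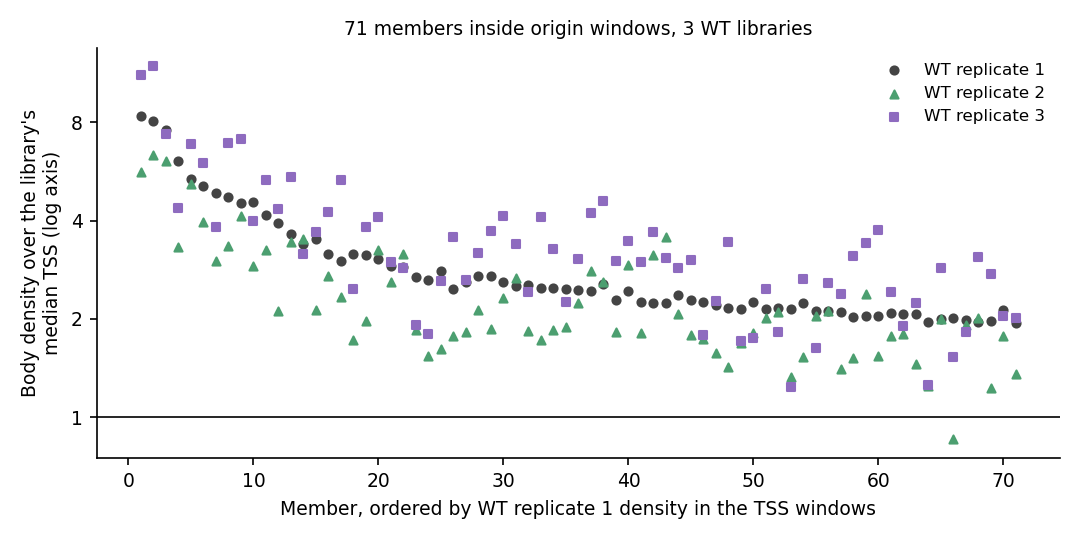
Gene body density divided by the library's median TSS (log axis) for the 71 members inside origin windows, ordered by WT replicate 1 density in the TSS windows, with 1 symbol per WT library. 70 members lie above 1 in replicate 2 and 71 in replicate 3, and replicate 2 tends to lie below the others (median 2.01 against 2.47 and 3.08).

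Origins lay near members more often than near all TSSs. An origin centre of the deposited table, which holds selected origins, lay within 10 kb of 21 members (10.4%, against 4.03% of all TSSs). One lay within 50 kb of 57 members (28.4%, against 12.2%). For the 21 dense TSSs with a promoter at 4 times the body or more the shares were 14.3% and 33.3%, so nearness was not particular to members.

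Most members met the same limits in the libraries of the knockouts, which the rule did not use. Body density was 0.8 or more in CFAP20-KO for 157 members (78.1%), against a background of 5.29% of all TSSs, and both limits were met by 152, against 4.90%. In CFAP20/CCNC-dKO the body limit was met by 125 members (62.2%, background 3.42%) and both limits by 124 (background 3.31%). Both knockout libraries met both limits at 112 members, and neither did at 37. Read the other way, the limits chose 414 TSSs in CFAP20-KO, of which 152 (36.7%) were members, and 280 in CFAP20/CCNC-dKO, of which 124 (44.3%) were members.

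Gene body density of the members differed little in the median between CFAP20-KO and WT, with a log2 ratio of 0.10, against 0.01 over all TSSs. At least 1.5-fold higher were 10 members (background 9.26%) and at least 1.5-fold lower 18 (background 14.0%), from which nothing is read since WT chose the members. When the same limits chose TSSs in CFAP20-KO the median became 0.47. The median log2 promoter ratio was 0.04, with 25 members at least 1.5-fold higher (background 18.2%) and 28 lower (background 24.9%).

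STC2 had the highest CFAP20-KO to WT body ratio among members. Its body density was 2.44 for WT, 5.51 for CFAP20-KO and 2.74 for CFAP20/CCNC-dKO, and the ratio of CFAP20-KO to WT was 2.25 (95% interval 1.98 to 2.56, counting error only). Its promoter density was 2.89, 5.71 and 2.25, so CFAP20-KO alone stood apart in both windows. The next highest ratios were those of MYO1C, a myosin (0.911, 1.67 and 1.23), RPL35A, a ribosomal protein (1.02, 1.75 and 1.32), PKNOX1, a homeodomain factor (0.988, 1.64 and 0.863), SSR3, a translocon-associated protein (0.899, 1.46 and 1.51), and ANXA1 (0.807, 1.30 and 0.445). ANXA1 and PKNOX1 were lowest in CFAP20/CCNC-dKO, whereas SSR3 was alike in both knockouts.

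LINC00840, with body densities of 1.44, 0.506 and 0.615, was also among the 6 lowest CFAP20-KO to WT body ratios. Besides these lncRNAs, low ratios were found at CDC25B, a cell cycle phosphatase, with 0.878, 0.289 and 0.352, and at RP5-1070G24.2, with 1.12, 0.350 and 0.523. In the 20 neighbouring TSSs of these genes upstream density was also lower in CFAP20-KO, with median log2 ratios of -0.76 for CDC25B and -0.81 for RP5-1070G24.2. The part of this local difference in their body ratios was not tested.

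The members' gene body density was lower in CFAP20/CCNC-dKO than in CFAP20-KO. The median log2 body ratio of CFAP20/CCNC-dKO over CFAP20-KO was -0.32 (quartiles -0.57 and -0.07), against -0.01 over all TSSs. Body density was lower in the double knockout at 158 of 201 members (78.6%, against 50.6% of all TSSs). It was at least 1.5-fold lower at 48 members (23.9%, background 13.4%) and at least 1.5-fold higher at 6 (2.99%, background 14.7%). With the upstream density of each TSS subtracted, 82 were lower (background 30.9%) and 27 higher (background 25.3%). Among the 131 members whose WT maximum lay at 500 bp or before, 31 were lower (background 13.1%). Neither library entered the rule, and both carry the same antibody label. The double knockout used 22 µg of chromatin with 32.6 ng of spike-in chromatin, against 28 µg with 40 ng in the others, and the part of this difference was not tested.

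Without subtraction of upstream density, the difference was larger at denser members. In classes of WT body density, the median log2 ratio was -0.22 from 0.8 to 1 (99 members), -0.32 from 1 to 1.5 (64), -0.48 from 1.5 to 2 (18) and -0.85 at 2 or more (20). In the densest class 19 of 20 members were lower in the double knockout and 12 were at least 1.5-fold lower. Outside the set, the median was -0.06 for all TSSs with WT density from 0.4 to 0.8 and 0.04 from 0.2 to 0.4. From 0.4 to 0.8, CFAP20-KO and CFAP20/CCNC-dKO had median body densities of 0.498 and 0.470 over upstream densities of 0.398 and 0.395. Members from 0.8 to 1 had 0.910 and 0.759 over 0.480 and 0.461, and members at 2 or more had 3.11 and 1.75 over 0.754 and 0.623. Upstream signal was thus a larger share of the body density in lower classes, which shrinks their log2 ratios. Its part in the difference between classes was not tested. The 21 dense TSSs with a promoter at 4 times the body or more had a median of -0.35, with 19 of 21 lower, so the lower body density was not particular to a low promoter to body ratio. When the limits chose TSSs in CFAP20/CCNC-dKO the median was -0.0048, and when they chose them in CFAP20-KO it was -0.44.

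**Figure D5:**
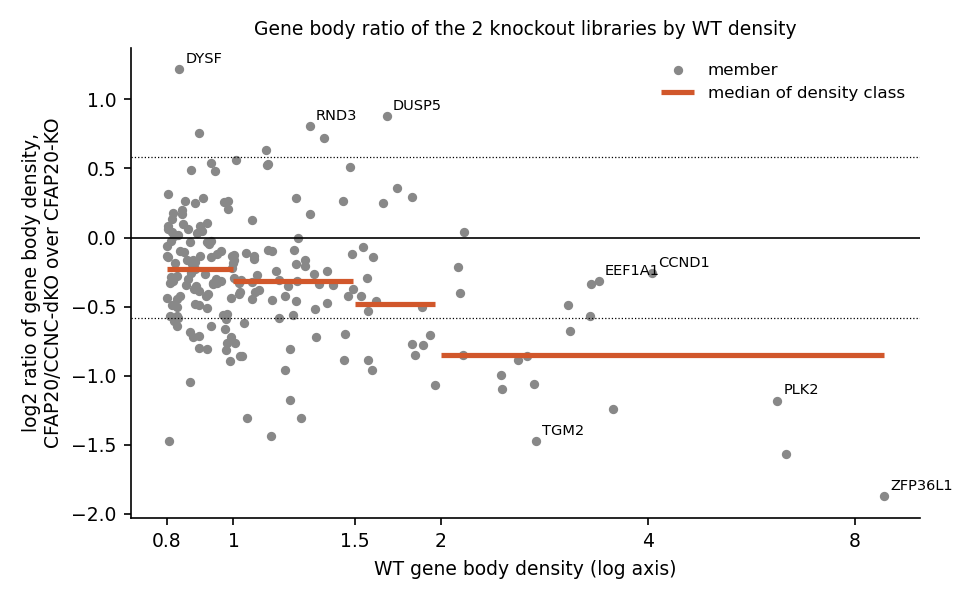
Log2 ratio of gene body density, CFAP20/CCNC-dKO over CFAP20-KO, against WT gene body density (log axis) for the 201 members (grey points), with the median of each density class (orange bars) and 1.5-fold limits dotted. With no upstream density subtracted, the class medians go from -0.22 at WT densities of 0.8 to 1 to -0.85 at 2 or more. EEF1A1 and CCND1 lie above their class median.

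ZFP36L1 had the lowest ratio between the knockouts, 0.269 (95% interval 0.225 to 0.321, counting error only). TGM2 had a ratio of 0.350 (0.259 to 0.469), and its promoter density of 2.90, 2.698 and 0.863 differed as strongly as its body. ANXA1 (ratio 0.341), the cytokine gene IL1B (1.14, 1.33 and 0.465) and the lncRNA AC112721.2 (1.25, 1.15 and 0.438) were also among the 6 lowest. At these 5 genes the upper end of the counting interval was below 0.6.

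A few members ran the other way. DYSF, which encodes the membrane repair protein dysferlin, had body densities of 0.834, 0.609 and 1.47, a CFAP20/CCNC-dKO to CFAP20-KO ratio of 2.42 (95% interval 1.64 to 3.64). DUSP5, a phosphatase of ERK, had 1.67, 1.15 and 2.15, a ratio of 1.87 (1.40 to 2.52). RND3, an atypical small GTPase, had 1.29, 1.46 and 2.58, a ratio of 1.77 (1.36 to 2.31). DDX17, an RNA helicase (0.891, 0.816 and 1.40), FGF5, a growth factor (1.36, 0.777 and 1.31), and the lncRNA GACAT2 (1.114, 0.806 and 1.27) made up the 6 highest. Promoter density did not follow at RND3 (3.23, 3.93 and 3.01) or FGF5 (3.24, 4.21 and 1.92).

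Against WT, the double knockout had a median log2 body ratio of -0.26 (0.01 over all TSSs), with 50 members at least 1.5-fold lower (background 10.4%) and 5 higher (background 6.15%). This contrast uses the library that chose the members, so nothing is read from these counts, and the sign turned to 0.25 when the limits chose TSSs in CFAP20/CCNC-dKO. RND3, DYSF, SSR3, DDX17, ENC1, a neuronal kelch protein gene (0.894, 1.31 and 1.39), and the lipase gene PNPLA3 (0.820, 1.16 and 1.17) had the highest ratios. TKT, the pentose phosphate enzyme transketolase, was among the lowest with 1.84, 1.09 and 0.587, beside PCAT5, ZFP36L1, TGM2, LINC00993 and RP11-258F22.1.

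Promoter density was lower in the double knockout than in CFAP20-KO by a median log2 ratio of -0.51 at members, against -0.22 over all TSSs. It was lower at 160 of 201 members (79.6%, against 58.9%), at least 1.5-fold lower at 93 (46.3%, background 33.2%) and at least 1.5-fold higher at 14 (6.97%, background 21.5%). Against WT the median was -0.44 (all TSSs -0.23), with 73 members lower (background 29.7%) and 9 higher (background 11.7%). Between the knockouts, the 21 dense TSSs set aside by the ratio limit had a median of -0.35. Of these, 19 were lower, 7 at least 1.5-fold lower (33.3%) and 0 at least 1.5-fold higher. Over all TSSs, median promoter density in CFAP20-KO and CFAP20/CCNC-dKO was 0.465 and 0.440 over upstream densities of 0.344 and 0.352. Members had 2.15 and 1.45 over 0.517 and 0.484. Upstream signal was thus a larger share over all TSSs, which shrinks their log2 ratio. Its part was not tested. The promoter to body ratio differed between the knockouts by a median log2 of -0.18 at members and -0.18 over all TSSs, a difference between sets that was not tested. The members' value moved to -0.049 or -0.50 when CFAP20-KO or CFAP20/CCNC-dKO chose the TSSs. Upstream density differed by -0.14 at members and 0.00 over all TSSs.

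The lowest promoter ratios between the knockouts were found at PRR16 (3.19 for WT, 3.71 for CFAP20-KO and 0.780 for CFAP20/CCNC-dKO), at the homeobox gene SIX4 (1.94, 1.46 and 0.398), at LINC01355 (0.670, 1.16 and 0.315), and at SOX9, a transcription factor of cartilage and epithelial progenitors (4.12, 3.96 and 1.22). SOX9 body density was 2.16, 1.92 and 1.05, so both windows were lower. The highest were found at GNAT2 (0.564, 0.234 and 0.969), SEMA3C (0.480, 0.346 and 1.19), NACA (0.568, 0.417 and 0.922) and MYOF (3.14, 1.66 and 2.63). GNAT2, SEMA3C and NACA had lower promoter density in CFAP20-KO than in the other libraries, and their WT maximum lay downstream.

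Gene lists show how the members divide by function. Over all TSSs 2.38% were members, 13.4% were at least 1.5-fold lower in the body between the knockouts and 14.7% higher, and each list rests on few genes. Of the 41 genes of the YAP/TEAD and immediate early list 15 were listed, and 6 of the 9 in genes of 5000 bp or more were members (ZFP36L1, MYC, KLF6, DUSP5, MCL1 and KLF10), with a median log2 body ratio between the knockouts of -0.52, 3 lower and 1 higher by 1.5-fold. MYC, the growth-promoting transcription factor, had body densities of 1.97, 2.03 and 0.949. KLF6, a zinc finger factor, had 1.73, 1.496 and 1.93, so 2 genes of the same list stood on opposite sides.

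The list of TGF-beta pathway and SMAD target genes had 4 members of 6 (19 genes, 7 listed), with a median of -0.69 and 3 of these 4 lower. SMAD7, the inhibitory SMAD of the pathway, had 1.05, 1.35 and 0.523, a ratio between the knockouts of 0.387 (95% interval 0.261 to 0.567). SKIL and SKI, corepressors that bind SMADs, had 0.990, 1.15 and 0.685, and 0.971, 0.861 and 0.528. FSTL1, a secreted follistatin-like protein, had 0.981, 1.09 and 1.26 and did not share the lower level. SMAD7, SKIL and SKI had their WT maximum upstream of the listed TSS, at -1240, -2150 and -1090 bp.

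The translation list had 4 members of 5, EEF1A1, RPL37A, RPS24 and NACA, with a median of -0.38 and 1 lower. RPL37A had 1.49, 2.13 and 1.63, and RPS24 had 1.32, 1.82 and 1.09. The splicing and RNA-binding list had 5 members of 14, with 1 lower and 1 higher (DDX17): RBM39 had 1.03, 1.34 and 0.860, HNRNPH1 1.03, 1.4996 and 1.21, and HNRNPC 0.978, 1.28 and 0.856. All of these translation and splicing genes except DDX17 were highest in CFAP20-KO.

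The matrix and integrin list had 3 members of 12, with 1 lower, among them the integrin subunit ITGA5 (1.08, 1.69 and 1.40) and the lysyl oxidase LOX (0.805, 0.726 and 0.654), neither past 1.5-fold between the knockouts. ITGA5 was past 1.5-fold higher in CFAP20-KO than in WT. The cell cycle list had PLK2, CCND1 and CDC25B among 10, with 1 lower. Glycolysis and carbon metabolism had 3 of 6, TKT, PGAM1 (1.31, 1.87 and 1.55) and LDHB (0.941, 0.545 and 0.777), with 1 lower. BAG3, a chaperone cofactor of the heat shock list, had 1.37, 1.19 and 1.01, and SUPT5H, the SPT5 subunit of the pausing and elongation factor DSIF, had 1.33, 1.90 and 1.501. FLNA was the sole member of the actin list. The lists of snoRNA hosts, iron and antioxidant genes, ubiquitin and proteasome genes and interferon and cytokine genes had no member among 1, 5, 4 and 7 TSSs in genes of 5000 bp or more.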

How the data were processed

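The authors deposited RPB1 density as a coverage signal in bins, spike-in normalized per the file names around TSSs (10-bp bins, 5 kb each side) and with scaling not given in the sources used here around origins (200-bp bins, 100 kb each side). The origin windows gave ratios within a library only. The submitters' processing notes name HOMER 4.8.2, SAMtools 1.11 and BWA 0.7.17, besides read checking and trimming tools. Per the labels, reads were mapped to hg38 and BDGP6. Gene length and the BrU-seq signal are the authors' deposited values with no error.

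From these, mean densities per window were computed with Python 3.11.15, numpy 2.4.6, pandas 2.3.3 and scipy 1.17.1. Log2 ratios and counts past 1.5-fold used a pseudocount of 0.0407, 10% of the median WT promoter density, which understates changes of low genes. Every value was a whole multiple of 1 coverage step (within 0.02 steps), and density divided by step and fragment length gave equivalent fragments. Ratios of single genes carry exact 95% intervals (Clopper-Pearson on fragments), which cover counting error only. Nothing said that the WT libraries came from separate cultures, so their SD may be technical. TSS positions were matched to GENCODE 44 on hg38, and sequences were read from hg38. The calculations were checked on simulated data.

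The members, gene lists and tests were chosen with earlier results of these data known. Genes were named by rule: the 12 densest members, the 6 highest and 6 lowest body ratios of each comparison, the 4 highest and 4 lowest promoter ratios between the knockouts (each with at least 20 equivalent fragments summed over both libraries), up to 4 members of each list, the 6 lowest promoter to body ratios, the 4 highest and 4 lowest late to early ratios, the 6 densest members near origins, and the TSSs beside each limit. Of the genes this rule names, 1 is not reported here. Other names were chosen after their values were seen. Alternatives covered pseudocount, low-value filter, scaling, windows, gene length, limits, selecting library and left-out WT libraries.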

Additional observations from a re-analysis of the deposited data

How the results depend on the processing

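No paired analysis was possible because the genotypes share replicate number 1 only, with 1 library each.

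The selecting library mattered most. Chosen in CFAP20-KO, CFAP20/CCNC-dKO or the mean of the 3 libraries, the sets held 414, 280 and 251 TSSs, respectively, in place of 201. Counts under these choices are therefore out of larger sets and cannot be set directly against those of the 201 members. The CFAP20-KO to WT contrast then had 3, 5 and 7 TSSs at least 1.5-fold lower in the body and 154, 54 and 55 higher. Its log2 promoter to body ratios were -0.35, -0.11 and -0.17, and the body median was 0.47 when chosen in CFAP20-KO. For CFAP20/CCNC-dKO to WT the body median became 0.071, 0.25 and 0.066, the promoter to body ratio -0.40, -0.57 and -0.40, and the higher members 34, 61 and 19, with 14 and 28 lower under the last 2 choices. Between the knockouts, 143 were lower when chosen in CFAP20-KO (promoter to body -0.049), and 27 lower and 29 higher when chosen in CFAP20/CCNC-dKO (body median -0.0048, promoter to body -0.50). With the mean of 3 libraries 10 were higher.

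Genes of 10000 bp or more, which are fewer, gave 32 lower members for CFAP20/CCNC-dKO to WT and 31 between the knockouts. A body window from 3000 to 5000 bp gave 19 higher members for CFAP20-KO to WT and a promoter to body ratio of 2.25 in WT origin windows. The local upstream correction gave 3 higher members for CFAP20/CCNC-dKO to WT. A body limit of 0.7 gave 326 members.

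Added after seeing the data were 5 alternatives. Subtracting each TSS's upstream density gave, for CFAP20-KO to WT, 46 lower and 47 higher members, for CFAP20/CCNC-dKO to WT 21 higher, and between the knockouts 82 lower and 27 higher. Without members whose WT maximum lay beyond 500 bp, lower members were 11, 32 and 31 in the 3 contrasts, and without members whose local upstream ratio was past 0.5 the first was 11. Leaving out chromosome 10, or members under 1.5 times their upstream density, left these counts within 1.5 times. The cause of these shifts was not tested, beyond the smaller number of members in the reduced sets.

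Leaving out each WT library in turn gave relative body densities of 2.24 to 2.77 and promoter to body ratios of 1.93 to 2.08 near origins. Of 220 alternative values, 177 stayed within the spread or within 1.5 times. For log2 ratios the spread was an SD over the WT libraries in origin windows. It was 0.308 for body and promoter ratios and 0.112 for promoter to body ratios. It does not measure the spread of a ratio between genotypes, and 0.308 is about the size of the median body ratio between the knockouts (-0.32). Setting aside the selecting library, the median body ratio between the knockouts ranged from -0.38 to -0.29. Alternatives with 1 TSS per gene or without neighbouring TSSs gave the same members. Depth limits single genes in the knockouts, and 1 library per genotype leaves the spread between cultures unknown.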
